A study of Mus musculus with 21 samples.

Results

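The collagen chain genes are the genes of the deposited mouse table whose symbol is Col, a number, a and a number, such as Col1a1. Of 24454 genes in the table, 44 had such a symbol, and they were grouped as 11 fibrillar chains, 9 chains of network-forming collagens, 9 FACIT chains (collagens that sit on the surface of fibrils) and 15 other chains. Of these 44, 36 passed edgeR's filter on low counts, as 13719 genes did in all. The 8 that did not (Col4a4, Col9a1, Col19a1, Col22a1, Col6a5, Col6a6, Col13a1 and Col26a1) reached at most 16 counts in any library. Col13a1 had 0 counts in all 21 libraries.

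Collagens are secreted proteins whose chains wind around each other into rod-like molecules. Fibroblasts make most of the fibrillar collagens of connective tissue: type I from Col1a1 and Col1a2, type III from Col3a1 and type V from the Col5 genes. Col4 chains form the mesh of basement membranes, Col8 chains form hexagonal lattices, and type VI chains form beaded filaments around cells. Before a molecule is secreted, its chains are hydroxylated and folded with the help of the enzymes and chaperones described further on.

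RNA was sequenced from mouse embryonic fibroblasts (MEFs) in 7 groups of 3 libraries, to ask how transcription depends on the helicase RTEL1 and on stabilization of G4-DNA, a fold of guanine-rich DNA. Rtel1f/f MEFs, in which both Rtel1 alleles are floxed, were infected with an adenovirus for GFP (+GFP) or for Cre with GFP (+Cre), or infected for GFP and given 10 µM TMPyP4, a ligand that stabilizes G4-DNA, for the last 48 h. Rtel1f/f MEFs transduced with RTEL1 C1252A/C1255A, a mutant that cannot unwind telomeric t-loops, and Trf1f/f MEFs, in which the telomere protein gene Terf1 is floxed, were each infected for GFP or for Cre. Cells were collected 96 h after infection. The labels call the 3 libraries of a group biological replicates of 1 cell line and do not say whether they came from separate cultures, so p-values measure the spread between these libraries, which may be technical. No group carried the retroviral vector without the mutant.

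Total counts ran from 32069888 to 51938593 per library, with a median of 43013208. Levels are given as CPM (counts scaled to a library size that edgeR's TMM normalization sets), per library in the order of replicates 1, 2 and 3. Rtel1 read 59.1 to 66.2 CPM in Rtel1f/f +GFP cells against 26.8 to 31.9 CPM after Cre, and Terf1 read 27.9 to 30.3 CPM in Trf1f/f +GFP cells against 0.0268 to 0.110 CPM with Cre. With RTEL1 C1252A/C1255A, Rtel1 read 328 to 338 CPM before deletion and 253 to 283 CPM after it, and such counts may include the transduced transcript. Of 8 fibroblast markers, 7 or 8 exceeded 1 CPM on average in every group, and lists of endothelial, epithelial, macrophage and skeletal muscle markers summed to at most 6.62 CPM in any library, adipocyte markers to at most 10.3 CPM and Schwann or neural markers to at most 26.3 CPM. The smooth muscle list, which MEFs also express, summed to 643 to 775 CPM in Rtel1f/f +GFP cells, 939 to 1115 CPM with Cre, 1728 to 1809 CPM with TMPyP4, 1151 to 1469 CPM with the mutant and 2862 to 3509 CPM in Trf1f/f cells.

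The stretch just upstream of the transcription start is shown for 4 chains that stand for the range of responses: Col1a2 and Col3a1, a type I chain and the type III chain, Col8a2, the chain with the greatest fitted fall after Cre, and Col8a1, its partner, which was called higher. The sequences are RefSeq's for GRCm38.p6, 250 bases ending at the base before the start, read 5′ to 3′ on the strand of the gene. Capitals mark matches to GGG repeated in 4 runs with 1 to 7 bases between runs (on either strand, so that CCC runs count), a common search pattern for G4-DNA, to CCAAT on either strand, and to TATAAA on either strand.
Col1a2: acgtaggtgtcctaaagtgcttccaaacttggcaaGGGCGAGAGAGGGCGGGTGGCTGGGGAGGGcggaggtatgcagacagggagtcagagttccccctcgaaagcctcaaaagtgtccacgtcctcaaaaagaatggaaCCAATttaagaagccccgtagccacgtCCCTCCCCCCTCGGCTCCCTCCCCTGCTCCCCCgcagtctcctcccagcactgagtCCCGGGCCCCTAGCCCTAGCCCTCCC
Col3a1: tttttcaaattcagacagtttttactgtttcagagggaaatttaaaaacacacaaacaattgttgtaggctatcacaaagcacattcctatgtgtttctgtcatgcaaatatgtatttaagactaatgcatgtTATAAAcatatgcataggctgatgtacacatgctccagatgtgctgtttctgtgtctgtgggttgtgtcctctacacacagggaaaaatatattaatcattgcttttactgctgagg
Col8a2: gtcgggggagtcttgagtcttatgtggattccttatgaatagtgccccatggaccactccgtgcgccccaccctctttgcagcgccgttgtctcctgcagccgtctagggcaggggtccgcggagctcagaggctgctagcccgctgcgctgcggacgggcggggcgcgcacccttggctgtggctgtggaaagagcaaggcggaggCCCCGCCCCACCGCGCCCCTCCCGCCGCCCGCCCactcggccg
Col8a1: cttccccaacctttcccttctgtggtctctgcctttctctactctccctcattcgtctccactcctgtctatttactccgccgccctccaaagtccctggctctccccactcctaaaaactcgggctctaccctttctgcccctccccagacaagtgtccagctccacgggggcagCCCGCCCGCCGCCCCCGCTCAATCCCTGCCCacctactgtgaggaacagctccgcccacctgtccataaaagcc

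These windows lie at chr6:4505368-4505617 (plus strand), chr1:45311288-45311537 (plus), chr4:126286544-126286793 (plus) and chr16:57754738-57754987 (minus), with a GC content of 62%, 35.2%, 70% and 60.8%. A window was given for 35 of the 44 chains. The G-run pattern occurred in 14 of them (40%) and in 16.2% of 27025 mouse promoter windows of the same length. CCAAT occurred in 12 (34.3%, against 34.5%) and TATAAA in 5 (14.3%, against 13%). The windows of Col1a2, Col8a2 and Col8a1 had the G-run pattern, and that of Col3a1 did not. Among tested chains with the pattern, 6 of 13 were called lower and 2 higher after Rtel1 deletion (beside 21% of all genes called lower and 22% higher), among those with a window but without the pattern 6 of 16 were called lower, and among those with no window given 5 of 7. With TMPyP4 (13.4% of all genes lower, 16.6% higher) these counts were 5 lower and 1 higher of 13, 8 lower of 16 and 3 lower of 7. A match is a description of the letters in this window.

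Collagen transcripts made up a smaller share of the RNA in cells without Rtel1, in TMPyP4-treated cells and in cells with the mutant than in Rtel1f/f +GFP cells. Their share is given in TPM, the deposited values that are scaled for transcript length. Together the 44 genes held 0.636%, 0.635% and 0.593% of all TPM in the Rtel1f/f +GFP libraries, 0.231%, 0.147% and 0.204% with Cre, and 0.364%, 0.247% and 0.289% with TMPyP4. With RTEL1 C1252A/C1255A the share was already 0.277%, 0.158% and 0.196% before Cre, and 0.241%, 0.130% and 0.147% after it. In Trf1f/f cells it was 0.916%, 0.654% and 0.639% with GFP and 0.809%, 0.671% and 0.789% with Cre. The libraries of the Rtel1f/f +Cre, TMPyP4 and mutant groups were all below those of Rtel1f/f +GFP, and the mutant groups overlapped each other, as both Trf1f/f groups did. In the mutant groups, where same-numbered libraries deviated together, the share was lower after Cre in each of the 3 pairs. Exact permutation tests of 3 against 3 libraries cannot give a p below 0.1, so none was made. In bulk RNA, fewer cells of a type and less RNA per cell cannot be told apart.

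Col1a1, Col1a2 and Col3a1 held 67.6% ± 0.8 (SD, n = 3) of the collagen TPM in Rtel1f/f +GFP cells, 59.6% ± 1.8 with Cre, 64.0% ± 2.2 with TMPyP4, 61.4% ± 2.6 and 57.9% ± 2.7 with the mutant, and 66.3% ± 2.4 and 65.3% ± 1.6 in Trf1f/f cells, with GFP and Cre in turn. In order of TPM, the leading chains of Rtel1f/f +GFP cells were Col1a2 (2089 ± 107 TPM), Col1a1 (1648 ± 66), Col6a1 (648 ± 24), Col3a1 (464 ± 22), Col6a2 (335 ± 16), Col5a2 (219 ± 20) and Col5a1 (184 ± 18). The ranges of Col5a2 and Col5a1 overlapped, with lowest and highest values of 202 and 241 against 169 and 204 TPM. Col3a1 held 7.47% ± 0.18 of the collagen TPM in Rtel1f/f +GFP cells, 4.01% ± 0.46 with Cre and 17.4% ± 1.9 in Trf1f/f +GFP cells.

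**Figure D1:**
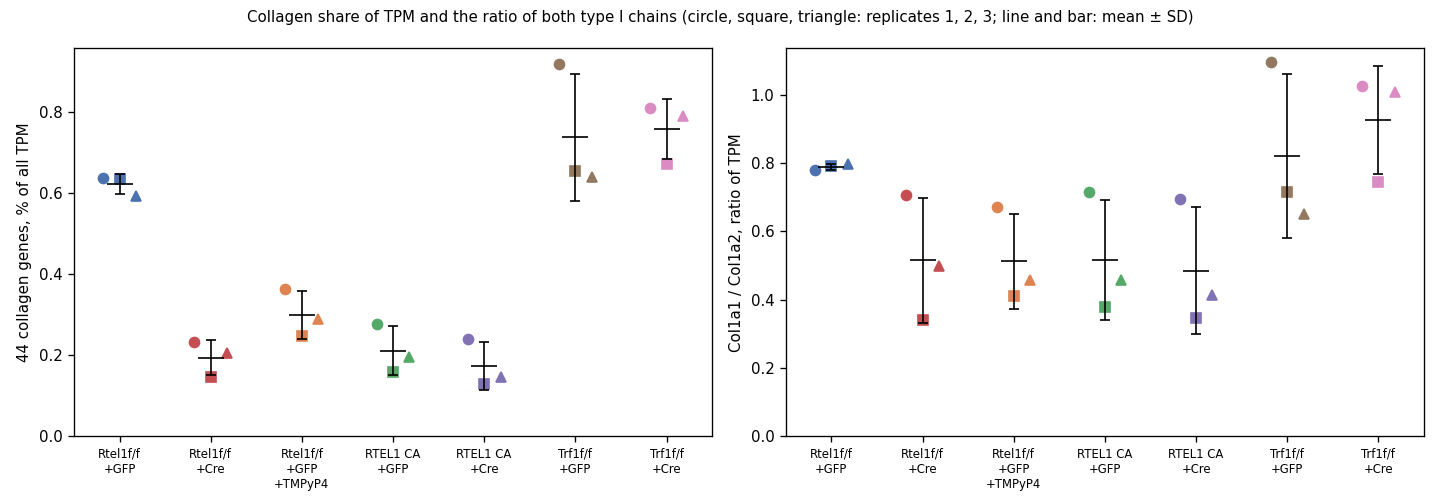
Share of all TPM held by the 44 collagen genes (left, percent) and ratio of Col1a1 to Col1a2 TPM (right), 1 point per library, with the mean ± SD of 3 libraries per group. The left panel shows 0.593% to 0.636% in Rtel1f/f +GFP cells and 0.130% to 0.364% in the 4 groups to its right. The right panel shows 3 nearly equal ratios in Rtel1f/f +GFP cells and a wide spread, highest in replicate 1, in the 4 groups beside it.

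Chains of every class were lower after deletion of Rtel1. Relative to Rtel1f/f +GFP cells, 17 of the 36 chains tested were called lower in +Cre cells and 2 higher, where a call is an adjusted p of at most 0.01 in the quasi-likelihood test of edgeR, adjusted by Benjamini-Hochberg over all 13719 genes. Over all genes tested, 21% were called lower and 22% higher in this comparison. The called chains were 6 of 11 fibrillar chains, all lower, 2 lower and 1 higher of 8 network chains, 3 lower of 6 FACIT chains, and 6 lower and 1 higher of 11 other chains. The median log2 fold change of the 21 chains with a mean of at least 5 CPM was -1.3001, beside -0.03 for all genes tested.

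TMPyP4 treatment was compared with the same control libraries. In treated cells 16 of the 36 chains were called lower and 1 higher, beside 13.4% lower and 16.6% higher over all genes. These were 5 fibrillar chains, 3 lower and 1 higher network chains, 2 FACIT chains and 6 other chains. The median over the 21 chains was -0.97, beside -0.01 for all genes. Since both comparisons use the same 3 Rtel1f/f +GFP libraries, their values are given side by side and their likeness was not tested.

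The type I chains were the most abundant in these cells. Col1a1 (chromosome 11, 94936224 to 94953042 in GRCm38.p6, as for all genes here) stood at 4975, 4642 and 4654 CPM with GFP, 1899, 644 and 1353 CPM with Cre, and 2888, 1287 and 1794 CPM with TMPyP4. Neither changed group overlapped +GFP, but the highest +Cre library held 2.95 times the lowest. Its log2 fold change was -1.87 ± 0.50 (SE, adjusted p = 0.00445) with Cre and -1.26 ± 0.49 (adjusted p = 0.0485, not called) with TMPyP4. With TMPyP4, Col1a1 was called lower in a fit of only the groups compared (adjusted p = 0.00872). It was also called with the replicate number as a block, alone or with the GC correction. The call after Cre was lost in 4 of 6 fits without 1 library (without +Cre replicate 2 or 3, or +GFP replicate 2 or 3), with adjusted p-values of 0.0105 to 0.0251. Col1a2 (chromosome 6, 4505618 to 4541543) stood at 5600, 5150 and 5121 CPM with GFP, 2359, 1652 and 2383 CPM with Cre, and 3772, 2751 and 3438 CPM with TMPyP4. It fell by 1.31 ± 0.19 on the log2 scale with Cre (adjusted p = 1.21e-05) and by 0.67 ± 0.18 with TMPyP4 (adjusted p = 0.00672). The TMPyP4 call was lost without +GFP replicate 1 or TMPyP4 replicate 2 or 3, with adjusted p-values of 0.0189 to 0.0424.

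Col3a1, the type III chain (chromosome 1, 45311538 to 45349706), also fell. It stood at 1268, 1271 and 1222 CPM with GFP, 269.8, 201 and 266 CPM with Cre, and 601, 485 and 552 CPM with TMPyP4. The log2 fold changes were -2.35 ± 0.15 (adjusted p = 9.28e-10) and -1.1996 ± 0.14 (adjusted p = 5.15e-06), with no overlap between any of the 3 groups. Col5a2 (chromosome 1, 45374331 to 45503282), is a type V chain that lies beside Col3a1 on the chromosome. Its +GFP libraries had 785, 666 and 667 CPM, the +Cre libraries 530.2, 432 and 543 CPM and the TMPyP4 libraries 815, 742 and 840.0 CPM, so that only the +Cre group lay wholly below +GFP. It fell by 0.49 ± 0.11 with Cre (adjusted p = 0.0012) and was at 0.18 ± 0.11 with TMPyP4 (adjusted p = 0.213, not called). Col5a1 and Col5a3 were not called, at -0.89 ± 0.30 and -0.20 ± 0.31 with Cre and -0.70 ± 0.30 and -0.86 ± 0.31 with TMPyP4. DESeq2 called Col5a1 lower after Cre (adjusted p = 0.00274), as did limma on TPM (0.00311), edgeR on only the groups compared (0.00776) and the GC correction (0.00489). With TMPyP4, Col5a3 was called lower by DESeq2, with only the groups compared, with the replicate number as a block and with the GC correction. The block also called Col5a1 lower in both comparisons.

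Col2a1, the main cartilage collagen (chromosome 15, 97975602 to 98004724), had 76.8, 115 and 108 CPM with GFP, 9.51, 3.45 and 9.23 CPM with Cre, and 22.1, 13.2 and 19.1 CPM with TMPyP4. The log2 fold changes of -3.76 ± 0.41 (adjusted p = 1.04e-06) and -2.47 ± 0.38 (adjusted p = 8.69e-05) separated all libraries. Col11a1, a chain of type XI collagen found in cartilage fibrils (chromosome 3, 114030479 to 114220756), had 187, 212 and 183 CPM with GFP, 50.2, 44.1 and 50.8 CPM with Cre, and 90.3, 84.7 and 92.5 CPM with TMPyP4. It fell by 2.01 ± 0.09 (adjusted p = 1.73e-11) and 1.12 ± 0.09 (adjusted p = 6.27e-08). Col10a1, the collagen of hypertrophic chondrocytes, was at 3.96, 6.52 and 5.55 CPM in +GFP libraries and 1.81, 1.81 and 2.15 CPM with TMPyP4, a log2 fold change of -1.47 ± 0.15 (adjusted p = 9.96e-07), and at 4.29, 3.52 and 4.18 CPM with Cre (-0.42 ± 0.14, adjusted p = 0.0188). This last change passed without +GFP replicate 1 (-0.59, adjusted p = 0.000499) and with limma on TPM. The 6 chondrocyte markers, none of them a collagen, summed to 30.5 to 32.7 CPM in +GFP libraries, 18.8 to 24.5 CPM in +Cre and 10.2 to 12.2 CPM in TMPyP4, with 2 of 6 over 1 CPM on average and Matn1 at 0 in all +GFP and TMPyP4 libraries, and their part in the result was not tested.

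Type VIII collagen is made of Col8a1 and Col8a2. Col8a2 (chromosome 4, 126286794 to 126314330) had 79.6, 112 and 101 CPM with GFP, 3.36, 2.48 and 3.25 CPM with Cre, and 20.6, 13.6 and 18.7 CPM with TMPyP4. It fell by 5.01 ± 0.21 on the log2 scale with Cre (32.2-fold lower, adjusted p = 9.5e-12) and by 2.47 ± 0.18 with TMPyP4 (adjusted p = 2.51e-08). Col8a1 (chromosome 16, 57624256 to 57754737) had 149, 115 and 114 CPM with GFP, 169, 161 and 168 CPM with Cre, and 167, 157 and 169 CPM with TMPyP4. It was called higher, by 0.40 ± 0.08 (adjusted p = 0.000299) and 0.39 ± 0.08 (adjusted p = 0.00069), with no overlap in CPM. In TPM the groups overlapped, at 59.5, 47.8 and 44.8 with GFP, 57.4, 57.9 and 54.5 with Cre, and 60.2, 56.5 and 57.4 with TMPyP4. Both calls were lost with limma on TPM (0.17, adjusted p = 0.0746, and 0.20, adjusted p = 0.0423) and with only the groups compared in edgeR (adjusted p = 0.0205 and 0.016). Without +GFP replicate 2 or 3, the rise with TMPyP4 had adjusted p-values of 0.0112 and 0.0107 and was no longer called. As a ratio of TPM, Col8a2 to Col8a1 went from 0.951 ± 0.280 (SD, n = 3) to 0.0216 ± 0.0029 with Cre and 0.127 ± 0.022 with TMPyP4.

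The basement membrane chains moved less. Col4a5, an X-linked chain of the type IV network, had 118, 133 and 123 CPM with GFP, 80.0, 75.8 and 82.5 CPM with Cre, and 109, 104 and 111 CPM with TMPyP4. It fell by 0.65 ± 0.05 (adjusted p = 2.41e-08) and 0.21 ± 0.05 (adjusted p = 0.00461), the latter not called in 4 of 6 fits without 1 library (+GFP replicate 2 or 3, TMPyP4 replicate 1 or 2, adjusted p from 0.0102 to 0.0345). The TMPyP4 call of Col4a5 was also lost with only the groups compared, with no count filter and with the GC correction. Col4a1 and Col4a2, the chains of the common type IV molecule, whose genes lie side by side on chromosome 8, were not called in either comparison. Their log2 fold changes were -0.51 ± 0.24 and -0.99 ± 0.33 with Cre and -0.31 ± 0.24 and -0.47 ± 0.33 with TMPyP4. DESeq2 called Col4a2 lower after Cre (adjusted p = 0.00846), as did limma (0.00314) and the GC correction (-0.39, 0.000327). Limma also called Col4a1 lower after Cre.

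The 4 type VI chains that passed the filter were called lower in both comparisons. Col6a1 (chromosome 10, 76708792 to 76726044) had 1218, 1246 and 1243 CPM with GFP, 459, 322 and 465 CPM with Cre, and 695, 559 and 639 CPM with TMPyP4. Col6a2 (chromosome 10, 76595756 to 76623630) had 577, 606 and 607 CPM with GFP, 177, 89.2 and 167 CPM with Cre, and 292, 183 and 227 CPM with TMPyP4. Col6a3 (chromosome 1, 90766860 to 90844001) had 274, 227 and 206 CPM with GFP, 99.0, 68.3 and 90.03 CPM with Cre, and 107, 82.6 and 79.2 CPM with TMPyP4. For these chains, which assemble into the beaded filament, no library of a changed group reached the +GFP range. With Cre they fell by 1.57 ± 0.17 (adjusted p = 6.31e-07), 2.05 ± 0.30 (adjusted p = 2.08e-05) and 1.46 ± 0.20 (adjusted p = 8.72e-06), and with TMPyP4 by 0.97 ± 0.17 (adjusted p = 0.000189), 1.35 ± 0.29 (adjusted p = 0.00135) and 1.39 ± 0.20 (adjusted p = 3e-05). Without TMPyP4 replicate 2 the call of Col6a2 was lost (adjusted p = 0.0106). Col6a4, which stood at 9.68, 14.2 and 12.4 CPM with GFP, had 5.29, 3.995 and 4.80 CPM with Cre and 4.95, 3.20 and 3.65 CPM with TMPyP4, falling by 1.37 ± 0.21 and 1.63 ± 0.21 (adjusted p = 2.17e-05 and 9.52e-06).

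Among the fibril-associated chains, Col12a1 (chromosome 9, 79598987 to 79721141) had 204, 285 and 219 CPM with GFP, 76.6, 61.4 and 66.0 CPM with Cre, and 126, 112 and 114 CPM with TMPyP4. It fell by 1.80 ± 0.17 (adjusted p = 1.23e-07) and 1.01 ± 0.17 (adjusted p = 0.000111). Col16a1 had 102, 106 and 103 CPM with GFP, 52.5, 20.4 and 53.1 CPM with Cre, and 55.3, 33.8 and 46.0 CPM with TMPyP4. It fell by 1.3001 ± 0.37 with Cre (adjusted p = 0.00639) and was at -1.201 ± 0.36 with TMPyP4 (adjusted p = 0.0141, not called, against 0.00275 with DESeq2). The call after Cre was lost without +Cre replicate 2 or any of the +GFP libraries, with adjusted p-values of 0.0118 to 0.0251. Col7a1, the anchoring fibril chain of skin, went the other way after Cre, with 6.99, 7.01 and 5.93 CPM with GFP against 21.7, 9.60 and 16.3 CPM, a rise of 1.26 ± 0.32 (adjusted p = 0.00327) that was lost without +Cre replicate 1 (adjusted p = 0.0241) or +GFP replicate 3 (adjusted p = 0.0133). With TMPyP4 it had 7.67, 6.02 and 6.33 CPM, overlapping +GFP (0.00 ± 0.33, not called).

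The rarer chains called lower are given by their counts, since several stood near 0. Col14a1 had 24, 81 and 65 counts in the +GFP libraries, 3, 2 and 2 with Cre and 3, 5 and 7 with TMPyP4. Col23a1, a transmembrane collagen, had 63, 131 and 129 counts, then 3, 4 and 5, and 9, 7 and 9. Col15a1 had 6, 22 and 14 counts, then 2, 0 and 4, and 1, 0 and 2, and its calls (adjusted p = 0.0067 and 0.00331) were each lost when single libraries were left out (+Cre replicate 1 or 2 and +GFP replicate 2 or 3 after Cre, adjusted p from 0.0136 to 0.0384, and +GFP or TMPyP4 replicate 2 with TMPyP4, 0.0178 and 0.0205). Col27a1, a fibrillar chain at 1.85 to 2.28 CPM with GFP, was called with TMPyP4 alone (0.884 to 0.951 CPM, -1.17 ± 0.32, adjusted p = 0.0067), and not in 5 of the 6 fits without 1 library (all but that without +GFP replicate 1, adjusted p from 0.013 to 0.0268). The other tested chains at low level, which were Col11a2, Col24a1, Col4a3, Col4a6, Col9a2, Col9a3, Col20a1, Col17a1, Col25a1 and Col28a1, averaged under 1 CPM over all libraries and were not called in either.

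**Figure D2:**
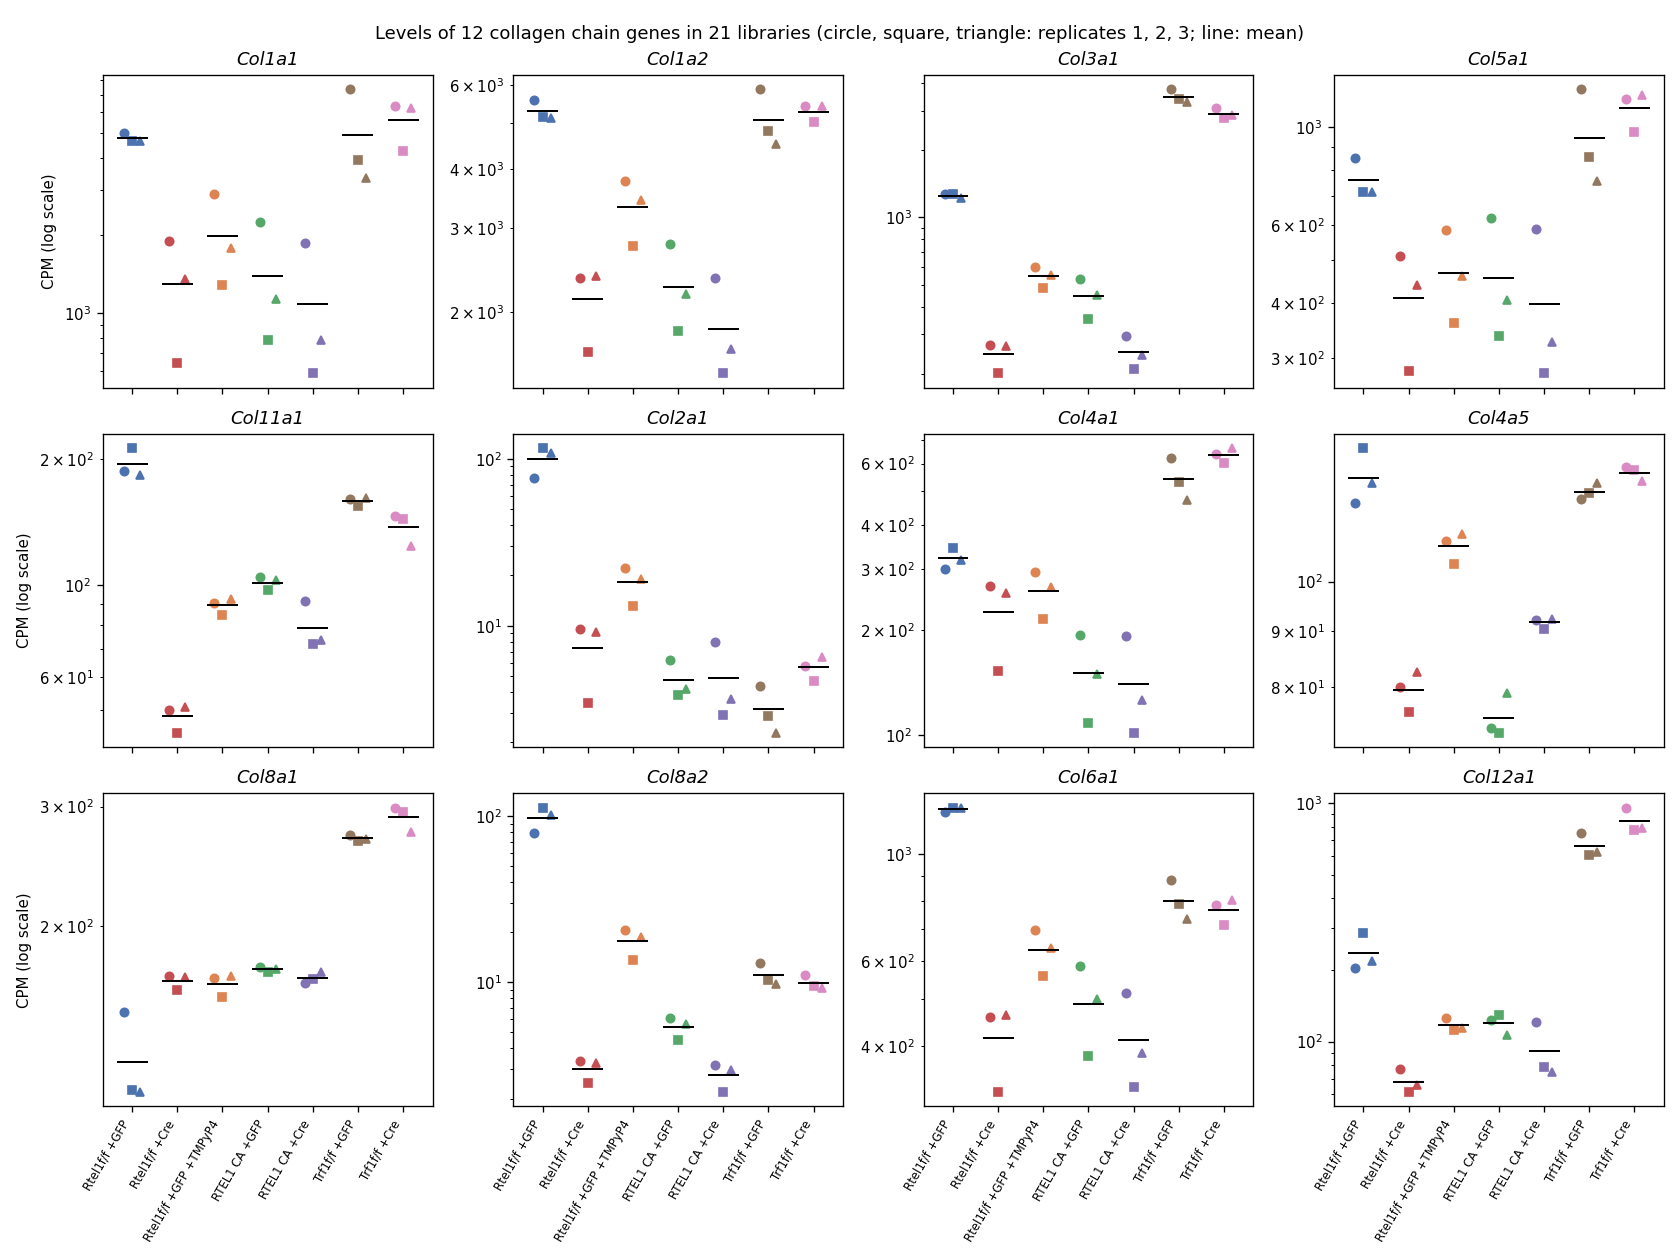
Levels (CPM, log axis) of 12 collagen chain genes in the 21 libraries, 3 points per group with a line at the mean, circles, squares and triangles for replicates 1, 2 and 3. Col3a1, Col11a1, Col8a2 and Col6a1 lie lower in Rtel1f/f +Cre and TMPyP4 libraries than in every Rtel1f/f +GFP library, and Col8a1 lies higher. In Col1a1 the Rtel1f/f +Cre libraries run from 644 to 1899 CPM, while in Col4a5 and Col8a1 the 3 libraries nearly coincide.

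Set directly against TMPyP4, +Cre cells had 6 chains called lower (Col3a1, Col5a2, Col11a1, Col4a5, Col8a2 and Col12a1) and 2 called higher (Col10a1 and Col7a1), beside 9.09% lower and 6.13% higher over all genes. Among these 8 the largest difference was that of Col8a2 (-2.54 ± 0.19, adjusted p = 3.96e-08), followed by Col7a1 (1.25 ± 0.32, adjusted p = 0.00907, not called with only the groups compared, limma or no count filter), Col3a1 (-1.15 ± 0.14, adjusted p = 1.23e-05) and Col10a1 (1.05 ± 0.15, adjusted p = 6.52e-05). The calls of Col12a1 and Col7a1 were lost when single libraries were left out, the first without +Cre replicate 2 or 3 (adjusted p = 0.0119 and 0.0117) and the second in 5 of 6 fits (all but that without +Cre replicate 2, adjusted p from 0.0194 to 0.055). Same-numbered libraries of these groups deviated together, and a fit with the replicate number as a block also called Col1a2, Col2a1, Col6a1 and Col6a2 lower.

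After Cre in cells with RTEL1 C1252A/C1255A, 1 chain was called lower and 2 higher, beside 0.569% and 0.525% of all genes. Col3a1 went from 530.2, 352 and 452 CPM to 297, 209 and 242 CPM, a log2 fold change of -0.83 ± 0.14 (adjusted p = 0.00299). Col4a5 rose from 73.3, 72.5 and 78.9 CPM to 92.2, 90.5 and 92.4 CPM (0.29 ± 0.05, adjusted p = 0.00496), and Col10a1 from 2.95, 3.45 and 2.92 CPM to 4.94, 5.38 and 5.28 CPM (0.74 ± 0.15, adjusted p = 0.00767). For these 3 chains the groups did not overlap. Fits without 1 library lost Col4a5 and Col10a1 in 6 of 6 cases (adjusted p from 0.0113 to 0.0493) and Col3a1 without +Cre replicate 2 or 3 or +GFP replicate 1 (0.0143, 0.0119 and 0.0107). Same-numbered libraries deviated together here as well, and with the replicate block 5 chains were called, adding Col8a2 (6.12, 4.50 and 5.64 CPM to 3.19, 2.18 and 2.96 CPM, -0.96, adjusted p = 0.00505) and Col6a3 (36.7, 27.3 and 28.2 CPM to 28.6, 16.6 and 18.3 CPM, groups that overlap, -0.56, adjusted p = 0.00456). In the 6 libraries alone, a fit without the block called 0 chains and one with it, added after seeing the data, 13, of which 10 were lower, among them Col1a1, Col1a2, Col6a1 and Col6a2. The share of all genes was not counted in the fits with the block, so their counts cannot be set against it. The median over the 21 chains was -0.20, beside 0.0049 for all genes.

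After Cre in Trf1f/f cells, 1 chain was called higher and 0 lower, beside 2.65% and 0.765% of all genes. Col10a1 rose from 10.8, 11.9 and 9.90 CPM to 30.4, 32.4 and 28.2 CPM (1.48 ± 0.14, adjusted p = 1.6e-06), and this call held in every fit without 1 library. At an unadjusted p under 0.05 edgeR had 5 chains, of which 1 was lower (Col11a1, from 160, 155 and 162 CPM to 146, 144 and 124 CPM), and DESeq2 called 1 chain higher and 0 lower. The share of all genes was not counted for either. Col18a1, whose C-terminal fragment is endostatin, had 117, 96.4 and 78.9 CPM before deletion against 167, 164 and 179 CPM after it (0.80 ± 0.35, adjusted p = 0.247, not called). It was called with only the groups compared (adjusted p = 0.00937) and with the GC correction (0.65, adjusted p = 0.00316). The type I chains overlapped between the groups, at 0.20 ± 0.48 for Col1a1 and 0.06 ± 0.18 for Col1a2.

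The effect of Cre itself was compared between the lines. Relative to cells with RTEL1 C1252A/C1255A, the effect in Rtel1f/f cells was lower for 13 chains and higher for 1 (Col8a1), beside 12.3% lower and 12.8% higher over all genes. Relative to Trf1f/f cells it was lower for 14 chains and higher for 0, beside 14.5% and 15.8% of all genes, with 2 chains higher and 25 lower at an unadjusted p under 0.05 and with 0 higher and 16 lower by DESeq2. With the GC correction described below, 18 were lower and 3 higher here, and 14 lower and 4 higher against the mutant. The share of all genes was not counted with this correction, with DESeq2 or at the unadjusted p, so these counts cannot be set against it. Among the called chains the largest differences in both comparisons were those of Col8a2 (-4.05 ± 0.27 and -4.86 ± 0.27), and Col3a1 differed by -1.52 ± 0.20 and -2.10 ± 0.20. The lines started from unlike levels. Col8a2 had 79.6, 112 and 101 CPM in Rtel1f/f +GFP cells. It had 6.12, 4.50 and 5.64 CPM with the mutant and GFP, and 13.1, 10.3 and 9.75 CPM in Trf1f/f +GFP cells. The part of the starting level in the differences was not tested. Both tests share the Rtel1f/f libraries.

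**Figure D3:**
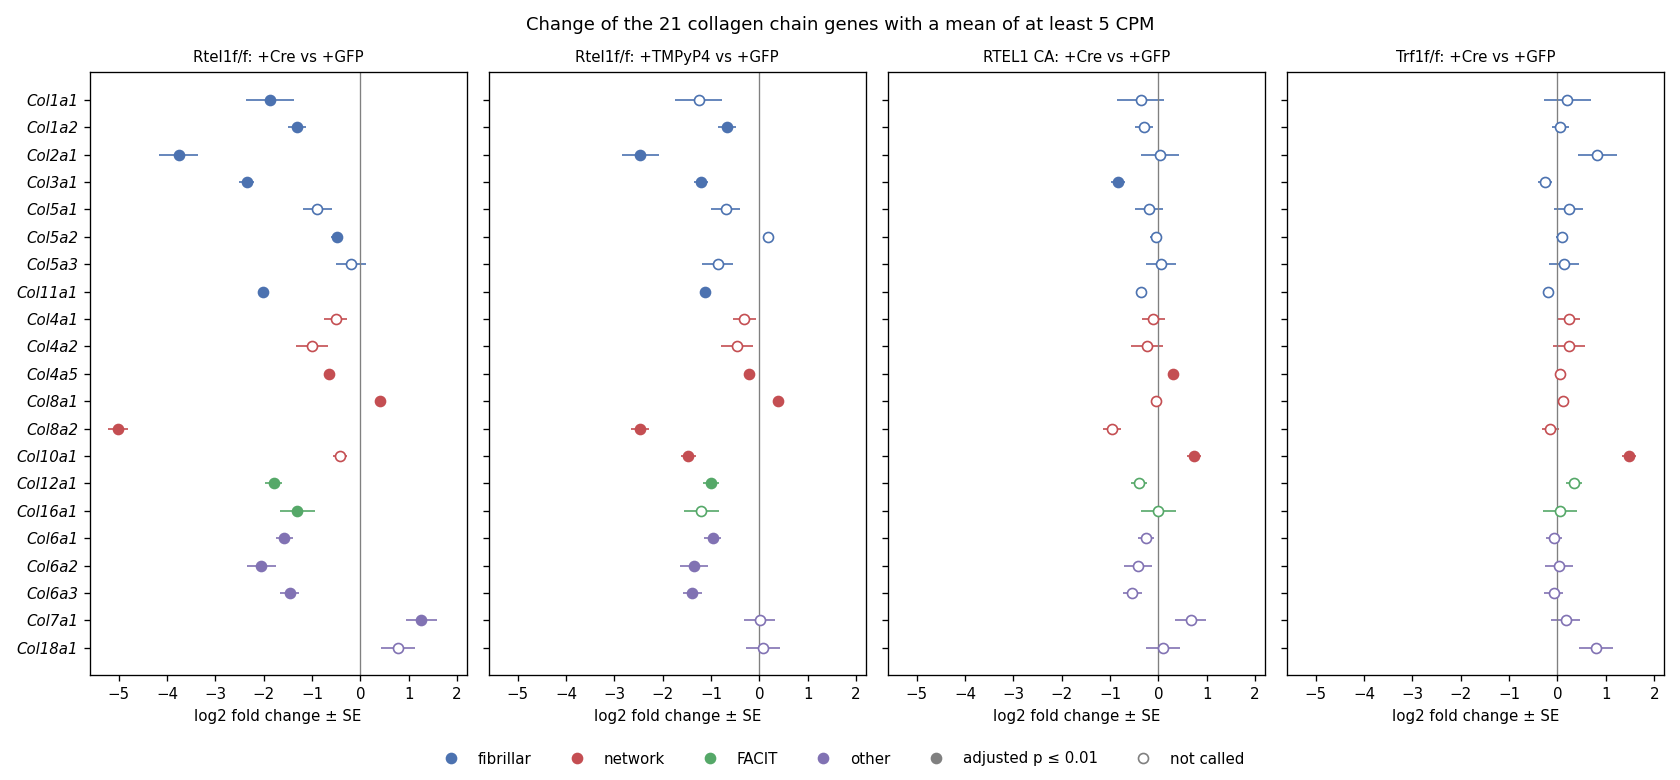
Log2 fold change (horizontal axis, ± SE from edgeR's fit) of the 21 collagen chains with a mean of at least 5 CPM, in 4 comparisons of 3 against 3 libraries, coloured by class, filled where the adjusted p was at most 0.01. For Rtel1 deletion 13 filled points lie left of 0 and 2 right of it, with 6 open, and for TMPyP4 11 lie left and 1 right, with 9 open. In the panels of RTEL1 C1252A/C1255A and Trf1f/f cells 3 points and 1 point are filled.

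The undeleted cells with RTEL1 C1252A/C1255A already had low collagen transcript levels. Against Rtel1f/f +GFP cells, 21 chains were called lower and 1 higher (Col8a1), beside 22.1% and 22.6% of all genes, and the median of the 21 chains with a mean of at least 5 CPM was -1.23. With the GC correction 19 were called lower and 2 higher, with a median of -0.82 and the share of all genes not counted. Col27a1 and Col11a2 were then not called. Both groups are Rtel1f/f MEFs with the same virus, and the vector, the mutant protein and culture history cannot be told apart. Col3a1 was at -1.496 ± 0.15 (adjusted p = 1.45e-07), Col1a2 at -1.23 ± 0.18 (adjusted p = 2.36e-05), Col8a2 at -4.17 ± 0.20 (adjusted p = 3.1e-11) and Col2a1 at -4.39 ± 0.42 (adjusted p = 2.69e-07). Col6a3 was at -2.94 ± 0.21, beside -1.46 ± 0.20 after Cre in Rtel1f/f cells, and Col6a4 at -3.44 ± 0.23, beside -1.37 ± 0.21, values that share the +GFP libraries and whose difference was not tested. Col1a1, Col16a1, Col4a2, Col5a3, Col27a1 and Col11a2 were called but lost without single libraries (adjusted p from 0.0101 to 0.0408). All 6 were lost without replicate 2 of the mutant +GFP group and all but Col16a1 without its replicate 3. Without Rtel1f/f +GFP replicate 1, Col1a1, Col27a1 and Col5a3 were lost, and without replicate 2 or 3, Col1a1, Col27a1 and Col11a2. Col15a1 had 0 counts in all 3 libraries with the mutant and GFP. The effects of Cre in both kinds of cell are thus measured from different levels.

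Trf1f/f +GFP cells differed from Rtel1f/f +GFP cells in which collagen transcripts they held, with 17 chains called higher and 6 lower, beside 30.3% and 24.5% of all genes. Some chains called higher, such as Col24a1 (0, 8 and 4 counts in Rtel1f/f +GFP against 38, 55 and 45), passed the filter only through Trf1f/f libraries. For those the direction of a call was close to fixed in advance. With at least 10 counts in every library, 8 chains were called higher and 3 lower, with the share of all genes not counted. With the GC correction 22 were called higher and 7 lower, with the share of all genes not counted. Trf1f/f cells are of another line, and line and Terf1 alleles cannot be told apart. Col3a1 was higher by 1.47 ± 0.15 (3753, 3384 and 3280 CPM), Col5a2 by 1.85 ± 0.12 (2646, 2507 and 2476 CPM), Col12a1 by 1.49 ± 0.17 (753, 608 and 627 CPM) and Col7a1 by 3.74 ± 0.34 (117, 78.1 and 70.8 CPM). Lower chains were Col2a1 (-4.98 ± 0.44), Col8a2 (-3.14 ± 0.19, at 13.1, 10.3 and 9.75 CPM), Col23a1, Col6a1 (-0.63 ± 0.17), Col11a1 (-0.29 ± 0.09) and Col6a4, which had 6, 2 and 1 counts. The calls of Col6a1 and Col11a1 were lost in fits without single libraries, the first without Trf1f/f +GFP replicate 3 (adjusted p = 0.018) and the second in 4 fits (without Trf1f/f +GFP replicate 1, 2 or 3 or Rtel1f/f +GFP replicate 2, adjusted p from 0.0182 to 0.0264), as were those of Col17a1 (Rtel1f/f +GFP replicate 1 or 2, Trf1f/f +GFP replicate 1), Col25a1 (all but Trf1f/f +GFP replicate 1), Col28a1 (Rtel1f/f +GFP replicate 2, Trf1f/f +GFP replicate 1) and Col9a2 (Trf1f/f +GFP replicate 1), each under 1 CPM on average. The type I chains overlapped between the lines, with 7370, 3920 and 3349 CPM for Col1a1 and 5892, 4807 and 4515 CPM for Col1a2 in Trf1f/f +GFP cells.

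The spread between the libraries of a group was uneven across chains, and it moved with the GC content of the transcript. In 5 of the 7 groups, the ratio of the highest to the lowest library rose with GC content over the 21 chains, with a Pearson r of 0.86 (Rtel1f/f +Cre), 0.79 (TMPyP4), 0.84 and 0.81 (mutant with GFP and Cre) and 0.81 (Trf1f/f +GFP). It was 0.35 in Trf1f/f +Cre and -0.07 in Rtel1f/f +GFP cells. These correlations are across chains of the same 3 libraries and are given as a description. Col1a1, with a GC content of 58.9%, varied 2.95-fold between Rtel1f/f +Cre libraries, Col16a1 (61.4%) 2.60-fold, and Col8a1 (46.8%) 1.05-fold. Replicate 2 was the lowest library for all 21 chains in Rtel1f/f +Cre, for 20 in TMPyP4, and for 19 and 18 with the mutant, and replicate 1 was the highest for 14, 16, 18 and 18. Over all genes, the level moved by -0.40 to 0.17 log2 units per 10 percentage points of GC content in the libraries of these 4 groups and by 0.26 to 0.34 in the 3 Rtel1f/f +GFP libraries, each relative to the average library, so that GC content moves both with replicate number and with the comparisons against +GFP.

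**Figure D4:**
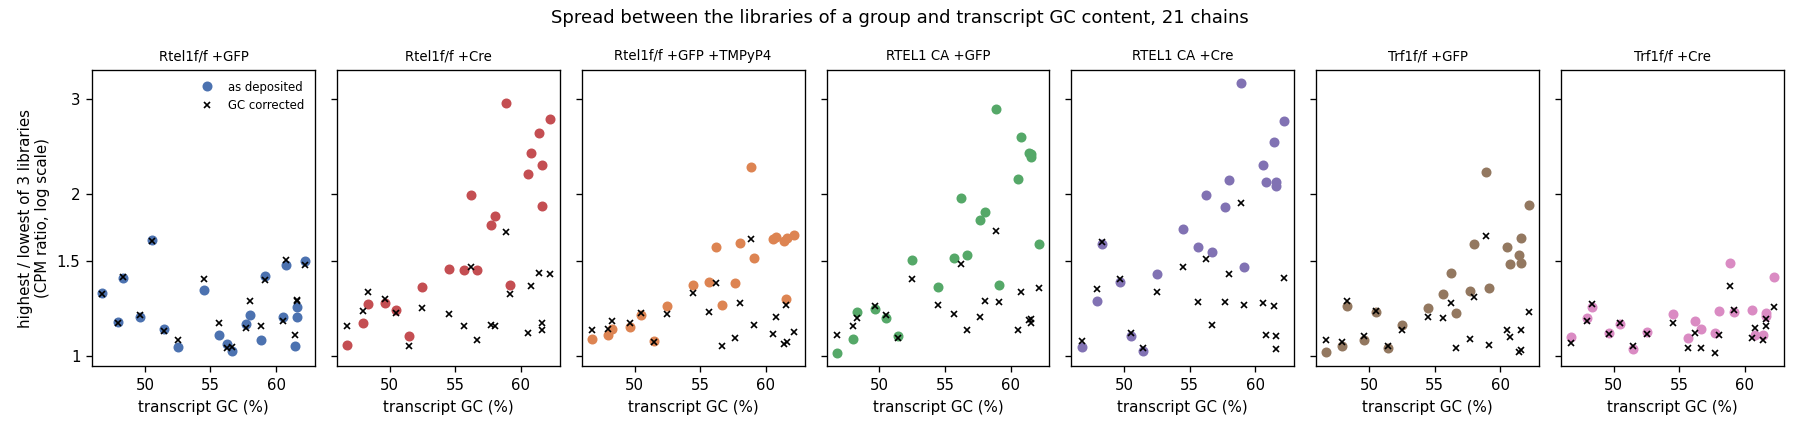
Ratio of the highest to the lowest library of a group (CPM, log axis) against transcript GC content (percent) for 21 collagen chains, 1 panel per group, coloured points for CPM as computed from the deposited counts and black crosses after the GC correction. Points rise to the right in 5 panels and lie flat in Rtel1f/f +GFP, and the median of the crosses is lower than that of the points in every panel but Rtel1f/f +GFP (1.202 against 1.45 in Rtel1f/f +Cre, 1.19 against 1.18 in Rtel1f/f +GFP).

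A correction of each library for GC content was added after this was seen. After Rtel1 deletion 19 chains were then called lower and 6 higher, beside 21.2% and 29% of all genes, and the median of the 21 chains was -0.66. With TMPyP4 17 were lower and 3 higher, beside 15.7% and 21.4%, with a median of -0.72. Chains with AT-richer transcripts hardly moved, such as Col11a1 (-2.01 before and -2.03 after, with Cre) and Col12a1 (-1.80 and -1.81), and GC-rich ones moved up, such as Col1a1 (-1.87 and -1.44), Col16a1 (-1.30 and -0.66) and Col7a1 (1.26 and 1.94). Col5a3, not called before (-0.20), was called higher after Cre (0.51, adjusted p = 2.14e-05), and so was Col18a1 (0.77 and 1.38, adjusted p = 9.58e-08, from 104, 70.7 and 78.4 CPM with GFP to 173, 77.0 and 183 CPM). The ratio of Col1a1 to Col1a2 in TPM, which are of unlike GC content, was 0.779 to 0.797 in Rtel1f/f +GFP cells and 0.342 to 0.706 with Cre, and the part of GC content in it was not tested. Type I collagen molecules usually hold more Col1a1 than Col1a2 chains.

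**Figure D5:**
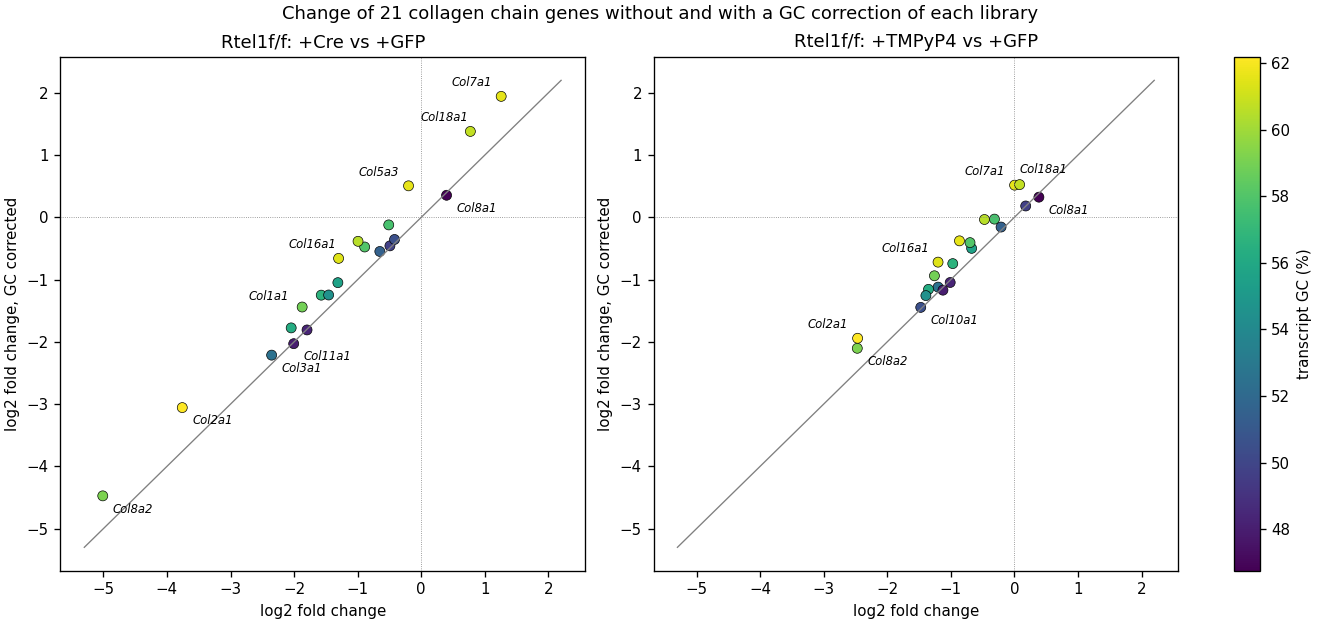
Log2 fold change of 21 collagen chains after Rtel1 deletion (left) and with TMPyP4 (right), as fitted (horizontal) and with the GC correction (vertical), coloured by transcript GC content in percent, with a line of equal values. GC-rich chains lie above the line, and Col5a3 crosses 0 in the left panel, from -0.20 to 0.51.

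The genes that modify, fold, process, cross-link and bind collagens were followed as a list of 42, of which 39 were tested. After Rtel1 deletion 22 were called lower and 3 higher, with TMPyP4 13 and 3, after Cre with the mutant 0 in either direction (9 at an unadjusted p under 0.05, and 1 with DESeq2) and in Trf1f/f cells 1 higher, against the shares of all genes given above for the same comparisons. The median log2 fold changes were -0.53, -0.26, -0.06 and 0.04 in this order. With the GC correction the first was -0.30, with 17 genes lower and 4 higher, and the second -0.16, with 14 lower and 4 higher. By role, after Rtel1 deletion, 10 of 14 modifying enzymes (prolyl and lysyl hydroxylases and their partners), 2 of 5 folding and export factors, 3 of 7 propeptide-processing genes, 2 of 5 cross-linking genes and 5 of 8 receptors were called lower, and 2 processing genes and 1 cross-linking gene higher. Both processing genes called higher stood under 5 CPM in every library of these groups. With the GC correction 7 of the 14 modifying enzymes were called lower after Rtel1 deletion.

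The receptor Itga1, the collagen-binding integrin subunit for basement membrane collagens, had 22.3, 34.8 and 27.8 CPM in Rtel1f/f +GFP cells, 2.33, 2.73 and 2.81 CPM with Cre and 9.16, 9.52 and 9.31 CPM with TMPyP4, falling by 3.43 ± 0.15 (adjusted p = 1.14e-11) and 1.60 ± 0.14 (adjusted p = 1.32e-07). Itga11, the integrin subunit for fibrillar collagen, had 8.35, 10.8 and 10.2 CPM before deletion against 1.86, 1.54 and 1.77 CPM after it, a log2 fold change of -2.5035 ± 0.16 (adjusted p = 7.38e-10), and 8.12, 8.19 and 8.64 CPM with TMPyP4. Adamts2, the protease that removes amino-terminal propeptides, fell by 1.62 ± 0.22 with Cre and 1.01 ± 0.21 with TMPyP4 (adjusted p = 7.31e-06 and 0.00102), and Pcolce, an enhancer of carboxy-terminal processing, fell by 1.01 ± 0.17 with Cre (adjusted p = 9.99e-05) and by 0.80 ± 0.17 with TMPyP4 (adjusted p = 0.00131). Loxl2, a cross-linking enzyme, rose, from 31.8, 23.6 and 22.6 CPM to 59.9, 53.9 and 57.8 CPM with Cre (1.14 ± 0.11, adjusted p = 9.03e-08) and 50.2, 44.9 and 47.8 CPM with TMPyP4 (0.87 ± 0.11, adjusted p = 5.49e-06). Loxl3, of the same family, was the gene called in Trf1f/f cells, from 104, 101 and 96.7 CPM to 180, 177 and 173 CPM (0.81 ± 0.12, adjusted p = 0.000192). The summed level of the 8 fibroblast markers, none of them a collagen, was mostly Fn1. The sum was 8484 to 9568 CPM in Rtel1f/f +GFP cells, 5019 to 5758 with Cre and 6117 to 7040 with TMPyP4. It was 4899 to 6967 CPM with the mutant and 10724 to 12371 in Trf1f/f cells. Fn1, Pdgfra, Pdgfrb, Prrx1 and Twist1 were lower in every +Cre than +GFP library of Rtel1f/f cells, and Twist2 overlapped. Vim did not fall, at 1490, 1290 and 1367 CPM with GFP and 1756, 1464 and 1609 with Cre. Thy1 was at most 0.490 CPM in any Rtel1f/f group, against 222 to 269 CPM in Trf1f/f cells. The part of these markers in the result was not tested.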

How the data were processed

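Poly(A) RNA of the 21 libraries had been sequenced with strand, and the authors' tools, per the submitters' processing notes, were cutadapt 1.9.1, STAR 2.5.2a and RSEM 1.3.0. They deposited 1 expected count per RefSeq gene of mm10, without normalization, and TPM values scaled for transcript length and library. All expected counts deposited were whole numbers and none was rounded here. Labels and methods differ on read length and serum. The authors' own test was DESeq2.

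Groups were taken from the labels. Counts were tested in R 4.3.3 with edgeR 4.0.16 (TMM scaling, filterByExpr on the groups, a robust quasi-likelihood model of the 7 group means on the 21 libraries with 14 residual degrees of freedom, two-sided tests and Benjamini-Hochberg adjustment over 13719 genes). Genes were called at an adjusted p of 0.01 or below, after a check on simulated data. SE is the absolute log2 fold change over the square root of F. The members, the lists and the rule for named genes were chosen with earlier results of these data known. Values per library are given for chains called in a main comparison with a mean of at least 5 CPM over its groups, and in the pathway list the 3 called genes with the largest rise and fall at that level are named.

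Other settings tried were DESeq2 1.42.0, edgeR with size factors of DESeq2, TMM without the collagen genes, all genes with any count, genes with 10 or more counts throughout, counts per kb of transcript for the collagen share, a replicate block, only the groups compared, limma 3.58.1 on log2(TPM + 0.5), a call at 0.05, a log2 change of at least 1 in size and each library left out in turn. A GC correction (loess of each library's deviation on transcript GC content, span 0.3, as offsets), alone and with the block, and the block in the groups compared were added after seeing the data. Transcript GC content came from GENCODE transcripts of GRCm38 for 99.3% of genes tested, coordinates and promoters from RefSeq GRCm38.p6. Pairing by replicate number was judged from the correlation of deviations from group means across 11840 genes. Numbers paired libraries after Cre with the mutant (r = 0.91, 0.91 and 0.51) and between Rtel1f/f +Cre and TMPyP4 (0.83, 0.86 and 0.51) and were not taken to do so elsewhere. No 2 libraries had over 3.67% identical counts. The report gives no fold for chains with 3 or fewer counts in a library of either group, and the differences given for Col14a1 and Col23a1 in the closing section are fitted values, not bounds. Col4a3bp, which is no collagen, was left out.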

Additional observations from a re-analysis of the deposited data

Results flagged for a closer look

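The effect of Cre differed between lines, by a test of the difference itself in edgeR (3 libraries in each of 4 groups, adjusted p of at most 0.01), for 14 chains against cells with RTEL1 C1252A/C1255A and for 14 against Trf1f/f cells. This fit had no replicate block, though same-numbered mutant libraries deviated together. With the block, Col16a1, Col1a1, Col5a2 and Col6a3 were also called lower against the mutant. Against Trf1f/f cells it added Col16a1, Col1a1, Col4a2 and Col5a1. All values are differences of log2 fold changes, Rtel1f/f minus the other line. Against the mutant they were, for fibrillar chains, -1.01 (Col1a2), -3.79 (Col2a1), -1.52 (Col3a1) and -1.65 (Col11a1). For network chains they were -0.94 (Col4a5), 0.44 (Col8a1), -4.05 (Col8a2) and -1.16 (Col10a1), for FACIT chains -1.40 (Col12a1) and -3.42 (Col14a1), and for other chains -1.32 (Col6a1), -1.62 (Col6a2), -1.70 (Col6a4) and -3.79 (Col23a1).

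Against Trf1f/f cells the differences were -1.37 (Col1a2), -4.58 (Col2a1), -2.10 (Col3a1), -0.58 (Col5a2) and -1.80 (Col11a1) for fibrillar chains. They were -0.71 (Col4a5), -4.86 (Col8a2) and -1.90 (Col10a1) for network chains, -2.14 (Col12a1) and -4.16 (Col14a1) for FACIT chains, and -1.51 (Col6a1), -2.08 (Col6a2), -1.38 (Col6a3) and -4.77 (Col23a1) for other chains. Col14a1 and Col23a1 had 2 to 5 counts in the Rtel1f/f +Cre libraries, and Col23a1 had 6, 4 and 0 in the mutant +Cre libraries, so their values depend on the prior count and are no bounds. Against the mutant, Col1a2 was lost without mutant +Cre replicate 1, mutant +GFP replicate 2 or Rtel1f/f +GFP replicate 1 (adjusted p from 0.0105 to 0.0161), Col6a2 without the first of these or the second (0.0178 and 0.0137), Col23a1 without mutant +Cre replicate 1 or 2 (0.0641 and 0.0203) and Col8a1 without Rtel1f/f +GFP replicate 2 or 3 (0.0151 and 0.014). Against Trf1f/f cells, Col5a2 was lost without Rtel1f/f +Cre replicate 2, Rtel1f/f +GFP replicate 1, Trf1f/f +Cre replicate 1 or Trf1f/f +GFP replicate 2 or 3 (0.0115 to 0.0187).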

How the results depend on the processing

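Counts of called chains were within 1.5 times the main count except as follows. The share of all genes was counted only in the main fits and, for Rtel1 deletion and TMPyP4, with the GC correction. After Cre with the mutant (main 3) they were 5 with DESeq2, with the replicate block and at an adjusted p of 0.05, 6 with the GC correction, 9 with it and the block, 13 with the block in the 6 libraries compared, 1 with limma, and 0 with only the groups compared or a minimum log2 change of 1. After Cre in Trf1f/f cells (main 1) they were 2 with only the groups compared, limma, the GC correction or 0.05, and 3 with GC correction and block. Rtel1f/f +Cre against TMPyP4 (main 8) gave 16 with the block in the groups compared, 15 with the GC correction, 16 with it and the block and 4 with the minimum change. The difference to Trf1f/f cells (main 14) gave 22 with GC correction and block or at 0.05. The Trf1f/f baseline (main 23) gave 11 with at least 10 counts in every library, by which rarer chains are no longer tested. The collagen share per kb of GENCODE transcript was 0.766%, 0.246%, 0.376%, 0.918% and 0.938% of all in Rtel1f/f +GFP, +Cre, TMPyP4 and Trf1f/f +GFP and +Cre cells. The pathway list after Cre gave, with the mutant (main 0), 1 with DESeq2 and 2 with the replicate block or the GC correction, and in Trf1f/f cells (main 1) 2 with the block. With the replicate block alone, Rtel1 deletion gave 23 (main 19), TMPyP4 22 (main 17) and Trf1f/f 1, and no other count moved by more than 1.5 times. Deviations of same-numbered libraries correlated at -0.03, 0.05 and 0.24, at -0.02, 0.06 and 0.18 and at 0.57, 0.43 and -0.21 in these comparisons, so their numbers were not taken as pairs.

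With the GC correction, and with it and the block, Col5a3 reversed after Rtel1 deletion (0.51 and 0.51), in the difference to the mutant (0.39 and 0.39) and to Trf1f/f cells (0.53 and 0.53), and Col18a1 in the difference to Trf1f/f cells (0.73 and 0.73) and, with the block, between mutant and Rtel1f/f +GFP cells (0.42). The cause was not tested. With 1 library left out, counts ran from 15 to 21 (Rtel1 deletion), 13 to 18 (TMPyP4), 0 to 2 (mutant), 1 to 1 (Trf1f/f), 6 to 7 (+Cre against TMPyP4), 11 to 16 and 13 to 17 (differences to the mutant and to Trf1f/f cells), 17 to 23 and 19 to 22 (mutant and Trf1f/f baselines). The share of TPM ran from 0.614% to 0.636%, 0.175% to 0.218% and 0.268% to 0.326% in Rtel1f/f +GFP, +Cre and TMPyP4, 0.177% to 0.237% and 0.138% to 0.194% with the mutant, and 0.647% to 0.785% and 0.730% to 0.799% in Trf1f/f cells. Depth limits chains under 1 CPM, whose libraries hold few counts.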
